A study of Mus musculus with 6 samples.

Results

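The elastic fibre and microfibril genes are 10 listed genes, Eln, Fbn1, Fbn2, Fbln1, Fbln2, Fbln5, Efemp2, Mfap2, Mfap5 and Emilin1, chosen by name, with every probe set that the platform annotation assigns to 1 of them alone. Probe sets naming 8 of the 10 alone were present, 17 in all, among 18194 genes measured in the series. No probe set named Fbn1 or Efemp2 alone, and these 2 genes were not analysed here. RNA came from 10T1/2, an established mouse embryonic fibroblast line, grown in DMEM with 10% fetal bovine serum to 80% confluency, without treatment. There is 1 group of 3 samples, numbered 1, 4 and 5, each hybridised to 1 MOE430A and 1 MOE430B array, so no test between groups exists and differences between samples are given as values. Whether these are separate cultures is not in the labels, and their spread could be technical. In a bulk sample fewer cells of a type cannot be told apart from less RNA per cell.

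Elastic fibres give stretch and recoil to arteries, lung and skin. They form when tropoelastin, the soluble product of Eln, is deposited on a scaffold of microfibrils and cross-linked there by lysyl oxidases. Microfibrils are polymers of fibrillins with associated small glycoproteins, fibulins carry tropoelastin and the oxidases to them, and the emilin at the fibre surface links the elastin core to microfibrils and cells. Fibroblasts and smooth muscle cells are the main makers of these proteins.

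Signals are the deposited MAS5 intensities, on a linear scale and scaled on each array on its own. Levels of different probe sets were not compared with each other, except in sums of marker signals and in choosing a gene's brightest probe set. The background limit of an array was the 95th percentile of the signals of probe sets for genes of distant tissues (liver, pancreas and retina among them), 93 genes in all. It was 1360, 1347 and 942 in samples 1, 4 and 5 on MOE430A and 1989, 2483 and 2074 on the B design. Detection of a probe set meant a signal over the limit in all 3 samples, and a gene needed 1 such probe set. Markers of fibroblasts were detected for 8 of 12 genes, of smooth muscle for 1 of 7 and of endothelium for 0 of 6. Those of epithelium were detected for 1 of 6, of leukocytes for 1 of 6 and of cartilage for 0 of 5. By the same rule 30.3% of all measured genes were detected. The 3' to 5' signal ratio of Gapdh is a sign of how complete the labelled RNA was. It read 24.7, 15.0 and 10.6 in samples 1, 4 and 5 on MOE430A and 23.4, 14.0 and 11.5 on MOE430B. Every array was thus 3'-biased, those of sample 1 the most, and the part of this in the calls of not detected was not tested. The MOE430A array of sample 5 was processed on fluidics station 2 and the other 5 arrays on station 1, per the file headers, so on MOE430A the station and sample 5 cannot be told apart.

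Of the 8 measured members, 3 were detected, the fibulin genes Fbln5 and Fbln2 and the emilin gene Emilin1, each by 1 of its 2 probe sets. That is 3 of 8 genes where 30.3% of all measured genes were detected, a share near the background. Of the 12 member probe sets of MOE430A, 3 were detected, against 22.7% of all probe sets naming 1 gene on that design. None of the 5 on MOE430B was, against 18.4%. The other 5 genes, Eln, Fbn2, Fbln1, Mfap2 and Mfap5, were not detected, although Eln and Fbln1 each had a probe set above the limit on 2 of 3 arrays and Mfap2 had 2 above it in sample 1 alone. Because a gene had to be above the limit in every sample, a member that was high in only 1 or 2 samples is counted here as not detected. With a limit at the 99th percentile only Fbln2 was detected, 1 gene, since the sample 5 signals of Fbln5 and Emilin1 lay under that limit. Without sample 4 the count was 5, with Eln and Fbln1 added.

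**Figure D1:**
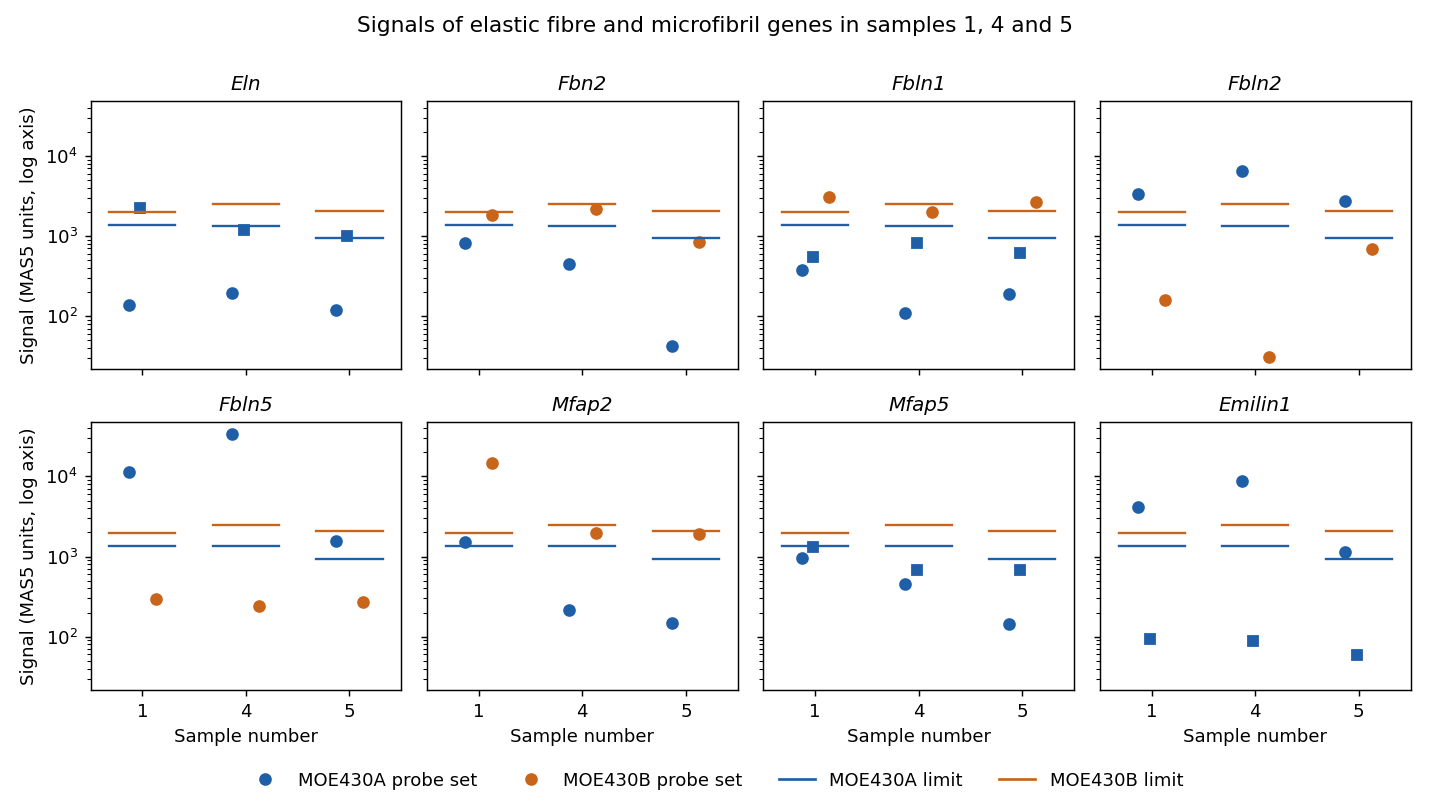
Signals of the 17 probe sets of the 8 measured genes in samples 1, 4 and 5, on a log axis in MAS5 units, 1 point for each probe set and sample, with circles and squares for different MOE430A probe sets of a gene. The short lines are the background limits of the arrays (942 to 1360 on MOE430A and 1989 to 2483 on MOE430B); Fbln5, Fbln2 and Emilin1 are above the MOE430A limit in all 3 samples, and Mfap2 is above the limit of each design in sample 1 alone.

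Elastin itself sat at the limit. Eln, which encodes the rubber-like core protein, had a probe set (1420855_at) that read 2252, 1174 and 1002 in samples 1, 4 and 5, a mean of 1476 ± 678 (SD, n = 3). Samples 1 and 5 lay above the limit, at 1.66 and 1.06 times its value, and sample 4 below it at 0.872 times. The signal was highest in sample 1, 2.25-fold above sample 5 and, with sample 4 raised to the limit, at least 1.67-fold above sample 4. The other Eln probe set (1420854_at) read 139, 192 and 118, far below the limit in every sample. With a limit at the 90th percentile the first probe set was detected and Eln joined the detected members, so its call rests on where the limit is set.

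The microfibril scaffold was represented by Fbn2 alone. Fbn2 encodes fibrillin-2, the fibrillin of embryonic and fetal microfibrils, and was below the limit in all samples on both designs. Its MOE430A probe set read 825, 442 and 41.7 in samples 1, 4 and 5, and its MOE430B probe set 1822, 2192 and 835. Signals below the limit carry no firm order or ratio, and no fold is given.

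The small microfibril-associated glycoproteins bind fibrillin and tropoelastin. Mfap2, encoding MAGP-1, read 1526, 213 and 147 in samples 1, 4 and 5 on MOE430A and 14601, 1950 and 1891 on MOE430B. Both probe sets were above the limit in sample 1 and below it in samples 4 and 5. With samples 4 and 5 raised to the limit, sample 1 was at least 5.88-fold above sample 4 and at least 7.04-fold above sample 5 on MOE430B, and at least 1.13-fold and at least 1.62-fold above them on MOE430A. Of all probe sets naming 1 gene, 1.38% were above the limit in sample 1 alone on MOE430A and 5.66% on MOE430B. Among member probe sets, 1 of 12 and 1 of 5 were. Both are those of Mfap2, so these counts only restate its values. On MOE430B the limit was lowest in sample 1 and rests on 16 probe sets. The MOE430B probe set of Mfap2 has a name ending in _x_at, an ending given to probe sets that can match other transcripts. Sample 1 also had the highest 3' to 5' ratios, and the part of this in the Mfap2 signals was not tested.

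Mfap5, encoding MAGP-2, a relative of MAGP-1 that also binds integrins, was below the limit in every sample by both of its MOE430A probe sets. The first (1418454_at) read 965, 458 and 143 in samples 1, 4 and 5, and the second (1449082_at) 1324, 679 and 680. The nearest to the limit was sample 1 by the second probe set, at 0.974 times its value.

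Of the 3 fibulin genes measured among the members, Fbln5 and Fbln2 were detected and Fbln1 was not. Fbln5, whose product tethers tropoelastin to microfibrils and to integrins, had the largest spread of the 3 detected members. Its MOE430A probe set (1416164_at) read 11422, 34045 and 1568 in samples 1, 4 and 5, which is 8.40, 25.3 and 1.66 times the limit. Sample 4 was 2.98-fold above sample 1 and 21.7-fold above sample 5, and sample 1 was 7.28-fold above sample 5. The mean was 15678 ± 16652 (SD, n = 3), an SD larger than the mean. The Fbln5 probe set of MOE430B read 292, 238 and 269 and stayed far below the limit in every sample, so the level and spread of this gene come from a single probe set.

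Fbln2, a fibulin that binds tropoelastin and fibrillin in vessels and skin, was steadier. Its MOE430A probe set (1423407_a_at) read 3305, 6532 and 2747 in samples 1, 4 and 5, a mean of 4195 ± 2043 (SD, n = 3), or 2.43, 4.85 and 2.92 times the limit. Sample 4 was 1.98-fold above sample 1 and 2.38-fold above sample 5, while samples 1 and 5 were 1.20-fold apart. The MOE430B probe set read 160, 30.7 and 689, with sample 5 the highest, and all 3 signals were below the limit. Fbln1, whose product is found in the elastin core and in basement membranes, was above the limit on 2 of 3 arrays by its MOE430B probe set, which read 3025, 2011 and 2680. Its MOE430A probe sets read 381, 110 and 190 and 548, 806 and 617, all below the limit. By the MOE430B probe set sample 5 lay between the others, 1.13-fold below sample 1 and above sample 4.

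Emilin1, the gene of the glycoprotein at the border of elastin and microfibrils, followed the order of Fbln5. One probe set (1416414_at) read 4180, 8818 and 1133 in samples 1, 4 and 5, a mean of 4710 ± 3870 (SD, n = 3), or 3.07, 6.55 and 1.20 times the limit. Sample 4 was 2.11-fold above sample 1 and 7.78-fold above sample 5. The other (1431834_a_at) read 93.6, 89.0 and 59.9 and was not above the limit anywhere. In sample 5 the detected probe set was only just above the limit.

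Promoter sequences are shown for the 3 detected members, whose signals followed the same order across the samples, and for Mfap2, which was high in sample 1 alone. Each line holds the 250 bases before the annotated transcription start from RefSeq, build GRCm38.p6, 5' to 3' on the strand of the gene, at chr12:101819120-101819369 (minus strand) for Fbln5, chr6:91212514-91212763 (plus) for Fbln2, chr5:30913536-30913785 (plus) for Emilin1 and chr4:141010174-141010423 (plus) for Mfap2. Capitals mark matches, on either strand, to 6 short motifs, the GC box GGGCGG, the TATA box TATAAA, the CCAAT box CCAAT, the AP-1 site TGANTCA, the SMAD box CAGAC and the TEAD site GGAATG.
Fbln5: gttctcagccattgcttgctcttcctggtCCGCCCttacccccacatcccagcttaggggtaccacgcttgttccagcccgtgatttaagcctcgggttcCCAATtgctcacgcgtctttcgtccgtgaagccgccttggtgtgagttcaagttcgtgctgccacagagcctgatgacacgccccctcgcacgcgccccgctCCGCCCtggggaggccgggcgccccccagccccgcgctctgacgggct
Fbln2: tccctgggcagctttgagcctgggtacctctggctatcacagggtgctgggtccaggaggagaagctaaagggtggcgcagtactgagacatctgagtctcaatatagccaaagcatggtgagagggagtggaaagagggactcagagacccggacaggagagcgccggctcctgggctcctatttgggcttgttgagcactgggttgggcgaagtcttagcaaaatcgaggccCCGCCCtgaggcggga
Emilin1: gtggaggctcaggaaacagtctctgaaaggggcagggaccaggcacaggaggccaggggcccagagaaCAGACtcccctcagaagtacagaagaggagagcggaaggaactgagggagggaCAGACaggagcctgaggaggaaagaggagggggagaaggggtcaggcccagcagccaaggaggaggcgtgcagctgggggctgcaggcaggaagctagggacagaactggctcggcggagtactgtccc
Mfap2: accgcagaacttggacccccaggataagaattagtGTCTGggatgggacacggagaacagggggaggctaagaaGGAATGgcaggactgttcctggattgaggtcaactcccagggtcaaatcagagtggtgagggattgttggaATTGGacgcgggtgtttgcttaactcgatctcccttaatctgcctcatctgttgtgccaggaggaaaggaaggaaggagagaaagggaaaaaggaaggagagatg

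The promoters of these members shared no motif across all of the detected genes. Fbln5 held 2 GC boxes and 1 CCAAT box and Fbln2 held 1 GC box, where 32.7% of 32851 RefSeq promoter windows of this length held a GC box and 33.8% a CCAAT box. Emilin1 held 2 SMAD boxes, against 42.2% of windows with at least 1. Mfap2 held 1 CCAAT box, 1 SMAD box and 1 TEAD site, the last present in 12.6% of windows. None of the 4 held the TATA box, found in 12.4% of windows, or the AP-1 site, found in 6.75%. No matches overlapped. The GC content was 65.2% for Fbln5, 63.2% for Emilin1, 58.8% for Fbln2 and 51.2% for Mfap2, beside a median of 52.4% over all windows. These are matches of letters only, and binding was not measured.

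Between samples, the 3 detected members shared an order on MOE430A, highest in sample 4, then sample 1, then sample 5. Among all 4639 detected probe sets of MOE430A, 17.6% had this order, and 43.6% were lowest in sample 5. Against the mean log2 signal of samples 1 and 4, sample 5 was lower by 12.6-fold for Fbln5 (log2 difference -3.65), 5.36-fold for Emilin1 (-2.42) and 1.69-fold for Fbln2 (-0.76). At least a 2-fold lower signal was thus seen in 2 of 3 detected member probe sets, where 7.44% of all detected probe sets passed the same fold. The members too were chosen with earlier results of these data known, so this contrast is a description only. The members' median was -2.42 beside -0.08 over all detected probe sets. Without sample 1 the median of the same 3 probe sets was -2.96. Without sample 4 it was -1.53 over 4 probe sets, since that of Eln (-1.17) was then detected too. Sample 5 has 1 array on this design.

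Samples 1 and 4 also differed for these genes. Sample 4 was at least 2-fold above sample 1 for 2 of 3 detected member probe sets, Fbln5 and Emilin1, where 3.92% of all detected probe sets passed, and Fbln2 lay just under that fold. The median log2 difference, sample 1 minus sample 4, was -1.08 over the 3 and 0.00 over all detected probe sets. With no filter on low signals the median over all 12 member probe sets of MOE430A was 0.49, the opposite sign. Most of the probe sets that were not detected read higher in sample 1 than in sample 4. Of the 12, 7 were above the limit on 0 arrays, so that median is mostly one of background signals.

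**Figure D2:**
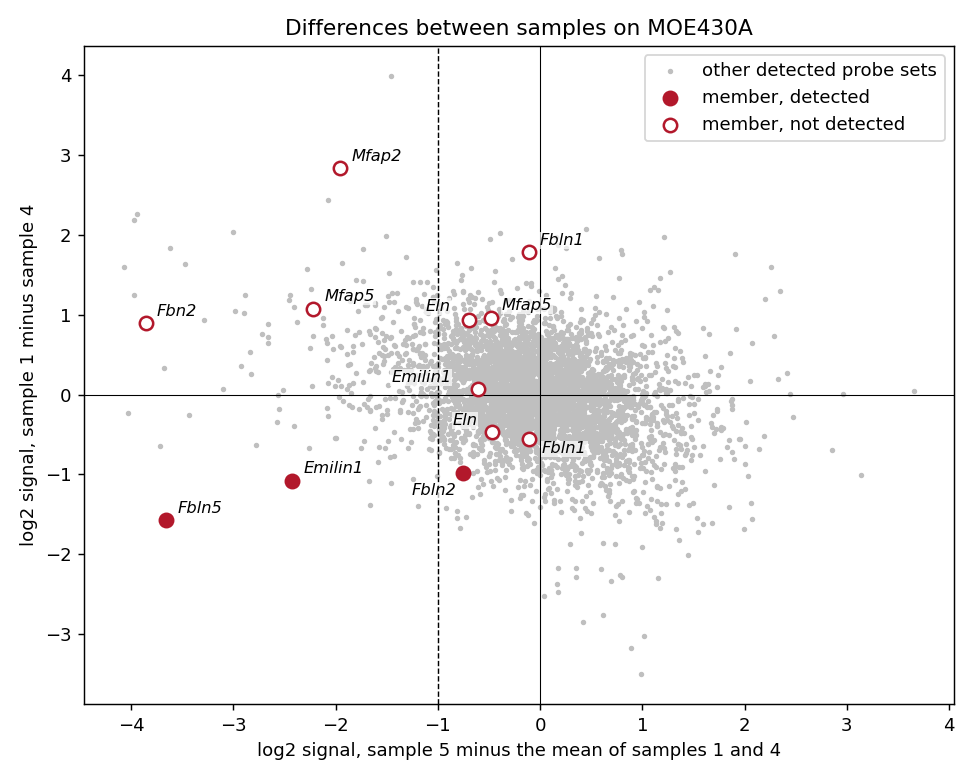
Each point is a probe set of MOE430A, placed by its log2 signal in sample 5 minus the mean of samples 1 and 4 (x axis) and in sample 1 minus sample 4 (y axis), in grey for other detected probe sets and in red for the members, filled where detected. The dashed line marks a 2-fold lower signal in sample 5; Fbln5 (-3.65) and Emilin1 (-2.42) lie left of it and below 0 on the y axis, with Fbln2 just right of it, while Mfap2, Fbn2 and 1 probe set of Mfap5 lie left of it and above 0 without being detected.

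Of the members, 5 had a probe set on each design, which allowed a second look at the samples. Mfap2 was above the limit in sample 1 and below it in samples 4 and 5 on both. Fbn2 was below the limit on both, so its order of samples is one among background signals. For Fbln5 and Fbln2 the MOE430B probe sets stayed far below the limit and gave no second reading of the MOE430A signals. For Fbln1 the MOE430A probe sets were below the limit and likewise gave no second reading. On MOE430B all 3 arrays ran on the same fluidics station.

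The other genes of the elastic fibre system were taken from 9 lists by role, 57 genes with 55 measured. Of these 19 were detected, a share near the 30.3% of all measured genes, and 17 had a detected probe set on MOE430A. The counts detected in each list below are to be read beside that share. Of the 17, 14 were lower in sample 5 on that design and 3 were not (Loxl3, Itgav and Ctsl), 10 were at least 2-fold lower and 1 at least 2-fold higher. Among all 3551 genes detected on MOE430A, 56.5% were lower in sample 5 and 7.43% at least 2-fold lower. The lists were chosen with earlier results of these data known, so this contrast is a description only. Each gene is given below by its brightest detected probe set of either design, or its brightest where none was detected. Other probe sets of a detected gene were not always detected, with 1 of 5 detected for Itgav, 1 of 4 for Ltbp3 and 1 of 4 for Itgb5. For Vcan it was 2 of 8, for Mmp14 1 of 3 and for Lox and Mfap3 2 of 3 each. It was 1 of 2 for each of Loxl1, Fn1, Hspg2 and Ctsl. The probe sets given for Itgb5 and Bgn have names ending in _x_at, and that of Ltbp3 ends in _s_at.

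The lysyl oxidases, which cross-link elastin and collagen, were detected for 3 of 4 measured genes. Lox read 20302, 22276 and 5830 in samples 1, 4 and 5, and Loxl1, the oxidase most tied to elastic fibres, 5447, 4142 and 1813. Both were lowest in sample 5, by 3.65-fold and 2.62-fold against samples 1 and 4. Loxl3 read 2161, 5358 and 4227 and was lowest in sample 1, and Loxl4 was not detected, at 727, 797 and 891.

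The latent TGF-beta binding proteins are relatives of fibrillin that store TGF-beta on microfibrils. Ltbp2 read 8350, 7962 and 952 and Ltbp3 82699, 38535 and 22687 in samples 1, 4 and 5. Sample 5 was lower by 8.56-fold for Ltbp2, which was there barely above its limit of 942, and by 2.49-fold for Ltbp3. Ltbp1 (375, 574 and 923) and Ltbp4 were not detected, and neither was any of the 3 TGF-beta ligand genes. Tgfb1 read 2936, 2738 and 1422 on MOE430B and Tgfb2 2694, 357 and 297. By their brightest probe sets, Tgfb1 and Tgfb3 were above the limit in samples 1 and 4 but not in sample 5, and Tgfb2 in sample 1 alone.

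Among relatives of the fibulins, emilins and MFAP proteins, 3 of 10 genes were detected. Efemp1, encoding fibulin-3, read 12238, 3889 and 1798 in samples 1, 4 and 5. It was highest in sample 1 and lowest in sample 5, by 3.84-fold against samples 1 and 4. Emilin2 read 9368, 19536 and 9243 on MOE430B, with sample 4 highest as for Emilin1. Mfap3 read 11184, 10703 and 12662 on MOE430B, a mean of 11517 ± 1021 (SD, n = 3). Sample 5 was the highest by this probe set but was lower by the detected MOE430A probe set, which is among the 14 counted above. Fbln7 (225, 83.0 and 243) was not detected. Of the ADAMTS and ADAMTSL genes, whose products act on fibrillin microfibrils, Adamtsl3 alone of 8 was detected, at 9168, 22738 and 7520 on MOE430B, again highest in sample 4. Adamtsl1 (3638, 841 and 637) and Adamtsl2 (3593, 528 and 1918) were above the MOE430B limit in sample 1 alone.

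Matrix partners of the fibres were detected for 4 of 7 genes. The proteoglycan gene Bgn read 118890, 109127 and 31149 in samples 1, 4 and 5 and Vcan, whose product binds fibrillin and fibulins, 15231, 9251 and 4334. Both were over 2-fold lower in sample 5, by 3.66-fold for Bgn and 2.74-fold for Vcan. Fn1, the fibronectin gene, read 20466, 39568 and 17428 and Hspg2, the perlecan gene, 5663, 6828 and 4553, with sample 4 highest and sample 5 lowest. Of the integrins that bind the RGD sites of these proteins, Itgb5 read 9318, 7095 and 2587 and Itgav 22286, 13747 and 20893. Sample 5 was 3.14-fold lower for Itgb5 and not lower for Itgav, and Itga5, at 316, 884 and 971 on MOE430B, was not detected.

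Proteases that can cut elastin or its scaffold were detected for 3 of 8 genes. Mmp2 read 33971, 9627 and 5442 in samples 1, 4 and 5 and Mmp14, the activator of its product, 20299, 12825 and 5364. Sample 5 was lower by 3.32-fold and 3.01-fold. Ctsl, a lysosomal cathepsin, went the other way, with 23645, 21326 and 59794, so that sample 5 was 2.66-fold higher. Mmp9 was not detected, at 669, 194 and 63.8. In the elastin receptor complex, Ctsa was detected, at 6986, 5292 and 4950 on MOE430B, and Glb1 and Neu1 were not, with Glb1 at 832, 795 and 962 and Neu1 at 329, 325 and 283.

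**Figure D3:**
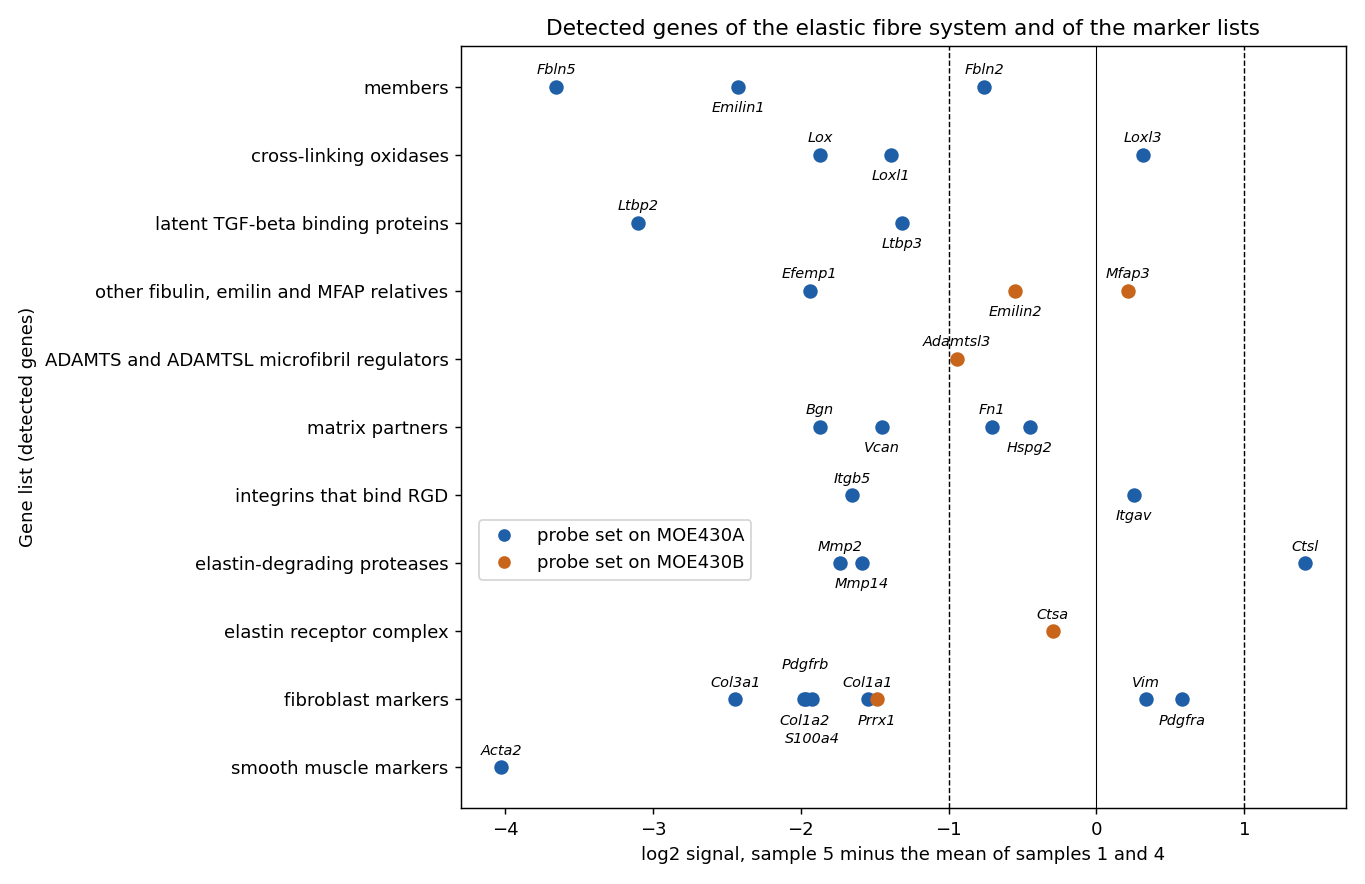
Detected genes of the member list, of the other lists by role and of the fibroblast and smooth muscle markers, 1 point per gene, placed by log2 signal in sample 5 minus the mean of samples 1 and 4, in blue for MOE430A and orange for MOE430B probe sets. Dashed lines mark a 2-fold difference in either direction; Fbln5 (-3.65), Ltbp2 (-3.10) and Acta2 (-4.02) lie far to the left, and Ctsl (1.41) is alone to the right of the 2-fold line.

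Summed markers of fibroblasts and smooth muscle were also lowest in sample 5. So were those of endothelium and cartilage, lists with no detected gene, while those of epithelium and leukocytes were not. The MOE430A limit was lowest in sample 5 too. The summed signal of the 12 fibroblast markers on MOE430A was 401922, 400417 and 176940 in samples 1, 4 and 5. Of the 8 detected on that design, 5 were at least 2-fold lower in sample 5, where 7.43% of all genes detected there were. The collagen chain genes Col1a1 and Col1a2 read 31161, 15904 and 7621 and 183221, 161044 and 43699, and Col1a2 gave the largest part of the sum. Vim, an intermediate filament gene, read 36684, 99725 and 76354, and Pdgfra, a growth factor receptor gene, 8198, 4006 and 8560, neither of them lowest in sample 5. The summed signal of the 7 smooth muscle markers was 71923, 83629 and 5473. Nearly all of it came from Acta2, the smooth muscle actin gene, which read 69179, 81188 and 4604. Of the 3 Acta2 probe sets, 1 was detected. Its name ends in _s_at, as for Ltbp3, so it can match several transcripts. The other 6 smooth muscle markers were not detected, and no marker of the list was at 0. The epithelial marker Epcam read 31382, 139544 and 29693 on MOE430B, by the 1 detected of its 2 probe sets. The name of that probe set ends in _x_at, so it can match other transcripts. The leukocyte marker Cd14 read 2151, 2576 and 4147, and the other markers of the epithelial and leukocyte lists were not detected. The part of these differences in the signals of Fbln5 and Emilin1 was not tested.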

How the data were processed

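Total RNA of 3 samples was hybridised to Affymetrix MOE430A and MOE430B arrays, 6 in all. For every array the authors deposited a signal intensity of each probe set. The submitters' processing notes name MAS5, with version, settings and genome build not given in the sources used here and no detection calls in the tables. After trimming, array means were 1501 on MOE430A and 1500 on MOE430B. The designs were kept apart. The run settings in the deposited scanner files, per the file headers, were used to check the design, the sample number and the station.

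Of 45265 probe sets, the 35067 naming 1 gene were used, with symbols updated through RefSeq (GRCm38.p6); 936 named several and 9262 none. The background list held 105 genes, 93 of them measured by 128 probe sets on MOE430A and 16 on MOE430B; 5 of these genes were themselves detected (Hcrt, Lor, Mobp, Oxt and Pomc). The limit on MOE430B rests on few probe sets. Signals were set to at least 1 before log2. Differences are sample 5 minus the mean log2 signal of samples 1 and 4, with a fold of 2 as the mark. No test was run. With 3 arrays per design their number limits the precision. The members and lists were chosen with earlier results of these data known. The genes named are all members, every detected gene of the other elastic fibre lists, the first 2 of each and detected genes that went against their list's majority; marker genes were chosen after their values were seen. Promoter windows came from RefSeq for 5 of the 8 measured genes, each at the start nearest the gene's 5' end. Python 3.11.15, pandas 2.3.3 and NumPy 2.4.6 were used, and the scripts were tested on simulated data. Alternatives changed the limit, the arrays and probe sets required, the normalisation, the pseudocount (16 or 64), the filter and the samples.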

Additional observations from a re-analysis of the deposited data

How the results depend on the processing

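The number of detected members was 3 and ranged from 3 to 5 when each sample was left out in turn. It was 1 with the limit at the 99th percentile, 5 where 2 of 3 arrays sufficed (Eln and Fbln1 added), and 0 when most of a gene's probe sets had to be detected, since each detected member rests on 1 of 2. On MOE430A, 1 probe set was detected at the 99th percentile, and 3 to 4 with a sample left out. On MOE430B, 1 was detected on 2 of 3 arrays, and 0 to 1 with a sample left out. The count of detected member probe sets at least 2-fold lower in sample 5 was 2 of 3. It was 3 of 3 without sample 1, and without sample 4 it was 3 of 4, with Eln (-1.17) added and Fbln2 (-0.27) not past the fold. With no filter it was 5 of 12. The share of all probe sets past this fold was worked out for the main setting only (7.44%), so these other counts have none beside them. The median difference of sample 5 was -0.73 with no filter. That median was -1.61 with members kept by their mean signal and low signals raised to the limit, and -2.96 to -1.53 with a sample left out. The median of sample 1 minus sample 4 turned from -1.08 to 0.49 with no filter. Detected genes of the other lists numbered 19, 20 to 23 with a sample left out, and 10 when most of a gene's probe sets had to be detected. These alternatives for the other lists were chosen after seeing the data. Quantile normalisation, the pseudocounts, median centring and removal of _s_at and _x_at probe sets left the members' counts and the directions of the 3 detected probe sets as they were. Among probe sets that were not detected, 1 of Fbln1 went from -0.11 to 0.02 under quantile normalisation, and that of Fbln5 on MOE430B from 0.03 to -0.01 under median centring. Without sample 5 no difference against it can be given. No paired analysis was possible because the samples form 1 group and no test was run. Signals near the limit bound what can be said of Eln, Mfap2, Mfap5, Fbn2 and Fbln1.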
